A study of Mus musculus with 6 samples.

Results

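The 9 genes described here mark the B cell lineage: Cd79a, Cd79b, Blk, Ms4a1, Cd22, Cr2, Fcer2a, Pax5 and Pou2af1. They were taken by symbol from a table of 770 measured mouse genes, and each of the 9 had a row in it. The RNA had been extracted from archived tumour tissue (fixed in formalin, kept in paraffin) of mice in which the carcinogen 4NQO had induced oral squamous cell carcinoma. The 3 anti-CD40 libraries came from animals given an agonistic antibody to CD40, and the 3 vehicle libraries from animals given vehicle. The labels give no mouse strain, sex, age, dose or schedule, and do not say that the libraries of a group came from separate animals. The p-values therefore measure the spread between these libraries, which may be partly technical.

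B cells recognise antigen through a membrane immunoglobulin that signals through the Cd79a and Cd79b chains. Pax5 commits a precursor to the lineage and stays on until plasma cell differentiation, so a transcript of Pax5 or Cd79b is carried by precursor and mature B cells alike. Cr2 and Fcer2a are surface receptors of mature B cells, and in the mouse Cr2 is also carried by follicular dendritic cells. CD40 is itself a receptor of B cells, and its engagement by T cells drives their activation and the germinal centre response. In RNA from whole tumour, fewer B cells and less RNA per B cell cannot be told apart.

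Values are log2 normalized counts as the authors deposited them, and differences are anti-CD40 minus vehicle. Whole counts recovered from those values summed to between 333400 and 497475 in the anti-CD40 libraries and between 357258 and 578598 in the vehicle libraries. Background was set in each library at 2 SD over the average count of its 8 negative control probes. That limit lay between 24.7 and 25.4 counts in the anti-CD40 libraries and between 24.96 and 26.6 counts in the vehicle libraries. Every library passed it for 523 of the 770 genes, at least 1 library for 688, and no library for 82.

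The B lineage genes showed no difference between anti-CD40 and vehicle tumours that passed the test, and most of their signal lay at or near background. Of the 9 genes, 4 (Cd79b, Ms4a1, Pax5 and Pou2af1) were above background in 3 libraries each, and in the same 3: anti-CD40 1, anti-CD40 2 and vehicle 2. Blk was above background in 4 libraries, and Cd79a, Cd22, Cr2 and Fcer2a in none. None of the 9 was above background in all 6 libraries. Of the 54 values of these genes, 16 exceeded the limit: 5 of 9 genes in anti-CD40 1, 5 in anti-CD40 2 and 0 in anti-CD40 3, against 1 in vehicle 1, 4 in vehicle 2 and 1 in vehicle 3.

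Limma, fitted to all 770 genes with Benjamini-Hochberg adjustment, called 0 of the 9 B lineage genes at an adjusted p of 0.05. The background for that count is 0 percent, since the fit called 0 of 770 genes, with 25 genes at an unadjusted p under 0.05 and 0 of the 9 among them. Groups that did not overlap were found for 0 of the 9 genes in either direction, beside 6.75% of all genes with higher and 3.51% with lower values in anti-CD40 tumours. The mean was higher in anti-CD40 tumours for 6 of the 9 genes and lower for 3. Among all genes it was higher for 420 and lower for 350. The median difference was 0.28 over the 9 genes and 0.04 over all genes. The 0.28 is the difference of Cr2, a gene above background in no library. On the same log2 scale the mean negative control was 5.35, 5.42 and 5.29 in anti-CD40 libraries. It was 5.09, 5.61 and 4.83 in vehicle libraries. The part of this background level in the median over the 9 genes was not tested. Leaving out vehicle 3 gave a median of −0.11 over the 9 genes, leaving out vehicle 1 gave −0.02, leaving out anti-CD40 2 gave 0.10 and leaving out vehicle 2 gave 0.66. Over all genes the same fits gave −0.09, 0.07, −0.02 and 0.11, in that order. Subtraction of the negative-control mean gave 0.75 over the 9 genes and −0.01 over all genes. Counts that this left under 1 were set to 1, so differences of genes at background depend on that floor. The 0.75 is the difference of Ms4a1 (SE 2.14), whose counts in anti-CD40 3 and vehicle 1 were set to it.

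**Figure D1:**
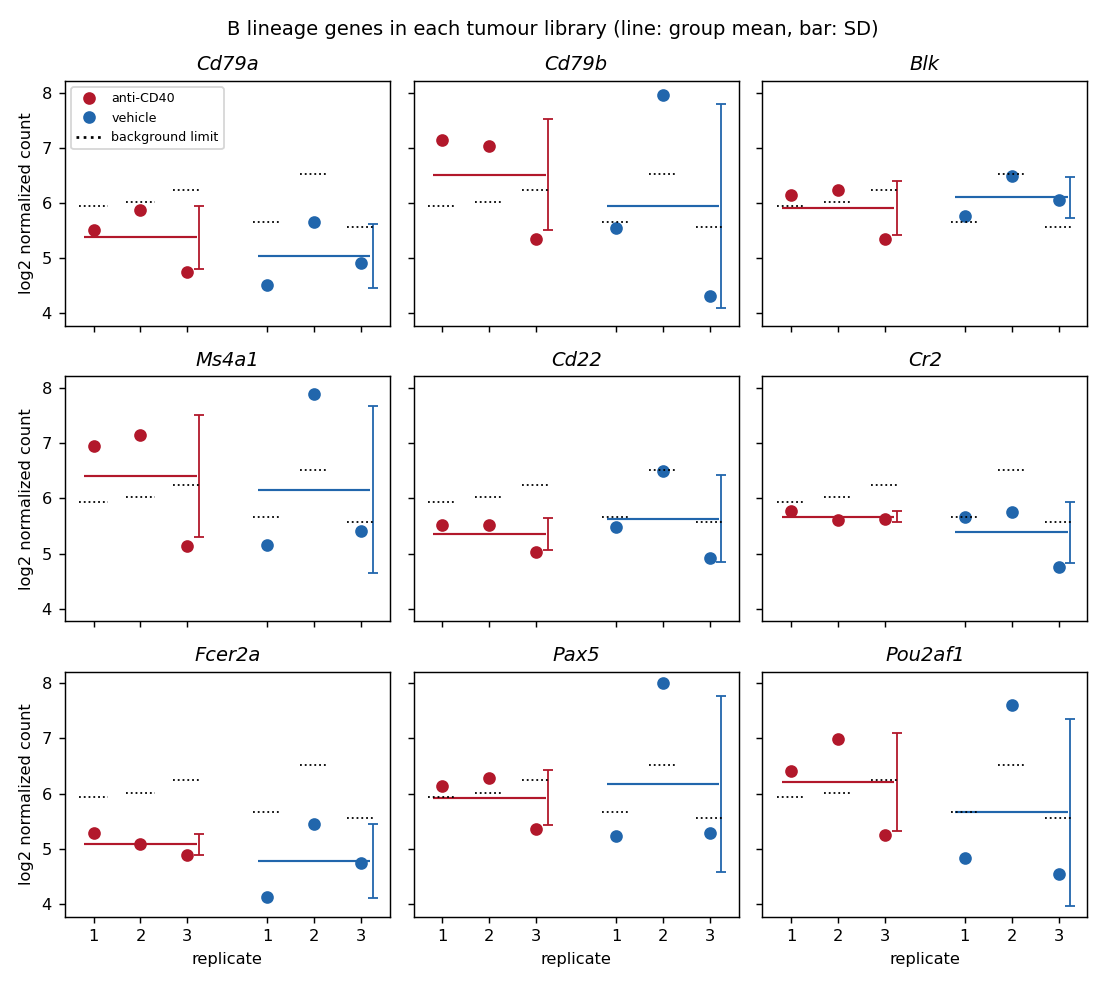
Log2 normalized count (vertical axis) of each B lineage gene in each library, with anti-CD40 replicates in red on the left and vehicle replicates in blue on the right of each panel. Horizontal lines are group means, bars are SD (n = 3) and dotted ticks are each library's background limit; Cd79b, Ms4a1, Pax5 and Pou2af1 exceed the limit in anti-CD40 1, anti-CD40 2 and vehicle 2 and in no other library.

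Promoters from RefSeq, build GRCm38.p6, cover 250 bases before to 50 bases after an annotated start, and are given for 6 of the 9 genes. Below are those of Pax5 and Pou2af1, which exceeded background together, and of Cd79a and Cd22, the only members whose window held one of the searched motifs. Capitals mark the motif match. The searched motifs were the octamer ATGCAAAT, to which the Oct factors partnered by Pou2af1 bind, the EBF1 motif CCCNNGGG, the ETS and PU.1 core AGGAAGTG and the degenerate NF-κB consensus, each on both strands.
Pax5, chr4:44710645-44710944, minus strand: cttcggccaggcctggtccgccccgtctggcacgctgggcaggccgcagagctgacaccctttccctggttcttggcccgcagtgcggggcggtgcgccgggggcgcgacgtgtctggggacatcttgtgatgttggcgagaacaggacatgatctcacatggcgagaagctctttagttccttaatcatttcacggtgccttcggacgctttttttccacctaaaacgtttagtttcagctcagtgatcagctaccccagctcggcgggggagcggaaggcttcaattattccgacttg
Pou2af1, chr9:51213440-51213739, plus strand: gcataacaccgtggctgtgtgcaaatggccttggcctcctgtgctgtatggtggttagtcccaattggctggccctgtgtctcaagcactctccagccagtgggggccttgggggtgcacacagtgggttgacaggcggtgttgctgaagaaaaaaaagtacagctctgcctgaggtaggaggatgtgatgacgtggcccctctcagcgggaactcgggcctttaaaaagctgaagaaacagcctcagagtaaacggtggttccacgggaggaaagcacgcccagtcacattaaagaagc
Cd79a, chr7:24897247-24897546, plus strand: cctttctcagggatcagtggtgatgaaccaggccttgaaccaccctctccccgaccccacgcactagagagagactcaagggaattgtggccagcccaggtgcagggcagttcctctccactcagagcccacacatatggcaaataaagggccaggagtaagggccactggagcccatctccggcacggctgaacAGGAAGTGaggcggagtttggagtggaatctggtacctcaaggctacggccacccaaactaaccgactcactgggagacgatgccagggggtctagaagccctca
Cd22, chr7:30878979-30879278, minus strand: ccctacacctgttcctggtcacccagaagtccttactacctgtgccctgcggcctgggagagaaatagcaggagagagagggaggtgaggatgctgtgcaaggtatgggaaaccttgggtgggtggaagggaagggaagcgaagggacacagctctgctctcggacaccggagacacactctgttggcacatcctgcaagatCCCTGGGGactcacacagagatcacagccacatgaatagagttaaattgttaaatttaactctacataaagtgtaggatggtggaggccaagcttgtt

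The ETS and PU.1 core lay in the Cd79a window alone, starting 55 bases before the annotated start, and is held by 4.07% of the 32851 promoters of the same length. The EBF1 motif lay in the Cd22 window alone, and 13.7% of all promoters hold it. No octamer and no NF-κB consensus was found in the 8 windows of the 6 genes, while 1.74% and 8.46% of all promoters hold them. A match is a run of letters and not a measured binding site.

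The signalling chains of the B cell receptor differed in detection. Cd79b, which encodes the Ig-beta chain, was 7.15, 7.04 and 5.35 in anti-CD40 replicates 1, 2 and 3, against 5.55, 7.95 and 4.32 in vehicle replicates 1, 2 and 3. In recovered counts it had 60, 52 and 13 in the anti-CD40 libraries, against 23, 74 and 9 in the vehicle libraries. Vehicle 2 was the highest and vehicle 3 the lowest of all 6, so the anti-CD40 values lay inside the range of the vehicle values. The difference was 0.57 (SE 0.92, 95% confidence interval −1.57 to 2.72, limma adjusted p = 0.974). With 1 library left out it ranged from −0.24 without vehicle 3 to 1.58 without vehicle 2.

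Cd79a, which encodes the partner chain Ig-alpha, stayed at background throughout. It was 5.52, 5.86 and 4.75 in anti-CD40 libraries and 4.52, 5.66 and 4.92 in vehicle libraries, or 18, 22 and 8 counts against 10, 14 and 15 counts. The negative controls in these libraries ranged from 5 to 25 counts. In each library other than anti-CD40 2, at least 3 of the 8 negative controls had as many counts as Cd79a or more. Its difference of 0.34 (SE 0.40, limma adjusted p = 0.974) therefore compares values without a measured level in any library.

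Blk, which encodes a Src-family kinase downstream of the receptor and is also expressed by some T cells and plasmacytoid dendritic cells in the mouse, varied over a narrower range than Cd79b. It was 6.15, 6.24 and 5.35 in anti-CD40 libraries and 5.76, 6.49 and 6.05 in vehicle libraries. Its log2 value was highest in vehicle 2, as that of Cd79b was. Its counts, before the library factors, were 29, 29 and 13 against 27, 26 and 36. Blk exceeded the limit in anti-CD40 1 and 2 and in vehicle 1 and 3, but not in vehicle 2, where 26 counts stood just under the limit of 26.6. The difference was −0.19 (SE 0.32, limma adjusted p = 0.974). The 5 measured genes of IL-17-producing T cells averaged 6.86, 7.47 and 6.69 in anti-CD40 libraries and 6.89, 7.12 and 6.55 in vehicle libraries, and summed to between 1433 and 2638 normalized counts against between 1259 and 1851. The 5 of plasmacytoid dendritic cells averaged 7.56, 7.58 and 7.70, against 7.95, 7.83 and 7.26. The part of these cells in the Blk values was not tested.

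**Figure D2:**
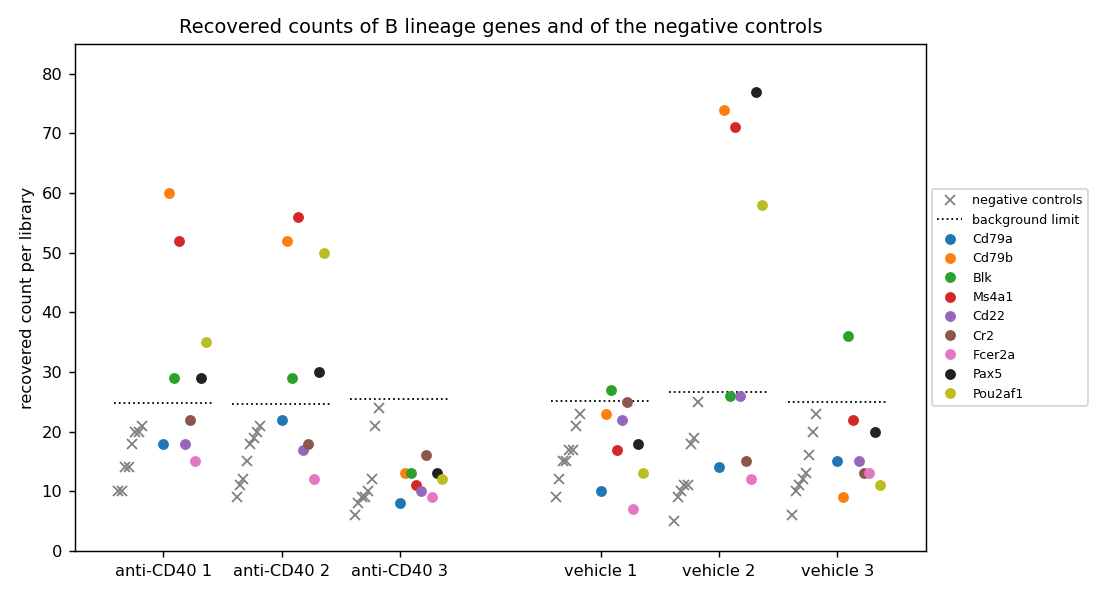
Recovered counts (vertical axis, linear) of the 9 B lineage genes (coloured points) and the 8 negative controls (grey crosses) in each library, with the background limit of that library as a dotted line. Cd79b, Ms4a1, Pax5 and Pou2af1 stand above the negative controls in anti-CD40 1, anti-CD40 2 and vehicle 2, with 29 to 77 counts, while in the other 3 libraries they have 9 to 23 counts.

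Among the other surface proteins, Ms4a1 alone was detected. It encodes CD20, the target of therapeutic B cell depletion, and was 6.95, 7.14 and 5.14 in anti-CD40 libraries, against 5.16, 7.89 and 5.40 in vehicle libraries. The counts were 52, 56 and 11, against 17, 71 and 22. The exact Poisson 95% interval was 38.8 to 68.2 counts in anti-CD40 1 and 5.49 to 19.7 counts in anti-CD40 3, against 55.5 to 89.6 counts in vehicle 2 and 9.90 to 27.2 counts in vehicle 1. These intervals cover counting error only and stand before the library factors. The difference in means was 0.26 (SE 0.82, 95% confidence interval −1.66 to 2.18, limma adjusted p = 0.974). With 1 library left out it ranged from −0.24 without vehicle 1 to 1.13 without vehicle 2.

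Cd22, Cr2 and Fcer2a were not above background in any library. Cd22, an inhibitory lectin that binds sialic acid and restrains receptor signalling, was 5.52, 5.53 and 5.02 in anti-CD40 libraries and 5.49, 6.49 and 4.92 in vehicle libraries. It came nearest to the limit in vehicle 2, with 26 counts beside a limit of 26.6. Cr2, the complement receptor that lowers the threshold of B cell activation, was 5.78, 5.60 and 5.62 in anti-CD40 libraries and 5.66, 5.75 and 4.75 in vehicle libraries. In vehicle 1 it lay just under the limit, with 25 counts beside 25.2. Fcer2a, the low-affinity IgE receptor CD23 of follicular B cells, was 5.28, 5.08 and 4.89 in anti-CD40 libraries and 4.12, 5.46 and 4.75 in vehicle libraries, with 7 to 15 counts over all 6. Their differences were −0.28 (SE 0.41) for Cd22, 0.28 (SE 0.31) for Cr2 and 0.31 (SE 0.36) for Fcer2a. Cr2 and Fcer2a did not exceed background in any library, and neither did Cd79a. The 9 genes are called B lineage genes here rather than mature B cell genes, and the stage of the cells was not tested.

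Both transcriptional regulators were detected in the same 3 libraries as Cd79b and Ms4a1. Pax5 was 6.15, 6.28 and 5.35 in anti-CD40 libraries, against 5.23, 8.01 and 5.28 in vehicle libraries, with counts of 29, 30 and 13 against 18, 77 and 20. It was close to the limit in anti-CD40 1 and 2 and far above it in vehicle 2 alone. Its difference was −0.25 (SE 0.73, limma adjusted p = 0.974), and ranged from −0.72 without vehicle 1 to 0.67 without vehicle 2. Pou2af1, the B cell coactivator of octamer-binding factors, was 6.40, 6.98 and 5.25 in anti-CD40 libraries, against 4.83, 7.61 and 4.55 in vehicle libraries. It had 35, 50 and 12 counts against 13, 58 and 11 counts. Its difference was 0.55 (SE 0.83, limma adjusted p = 0.974), and ranged from −0.0042 without vehicle 3 to 1.52 without vehicle 2.

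**Figure D3:**
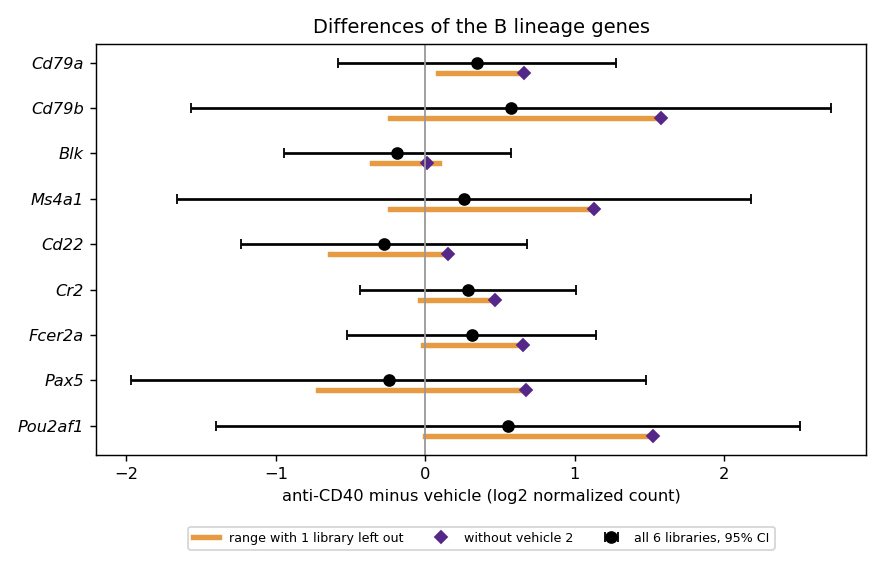
Difference in log2 normalized count, anti-CD40 minus vehicle, for each B lineage gene. Black points and bars are the limma estimate and 95% confidence interval over all 6 libraries, orange bars the range when 1 library is left out, and purple diamonds the value without vehicle 2; every interval spans 0, and the 9 estimates lie between −0.28 and 0.57.

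The spread between libraries of a group was larger than the difference between groups for the detected genes. The within-group SD was 1.49 for Cd79b, 1.35 for Pou2af1, 1.32 for Ms4a1 and 1.18 for Pax5, beside a median of 0.39 over all 770 genes. By this measure the 4 genes ranked 11th, 18th, 19th and 26th of 770. The median over the 9 genes was 0.60, and their median standard error was 0.41 against 0.30 over all genes. Without vehicle 2 the mean was higher in anti-CD40 tumours for 9 of 9 genes, with a mean difference of 0.76 in place of 0.18. Without vehicle 3 it was higher for 2 of 9, with a mean difference of −0.15. The mean difference was also below 0 without vehicle 1 (−0.07) and without anti-CD40 2 (−0.0040), it was 0.04 without anti-CD40 1, and it was 0.50 without anti-CD40 3. The median over all 770 genes moved the same way, from 0.04 to 0.11 without vehicle 2 and to −0.09 without vehicle 3. The share of all genes with a higher mean was not counted with a library left out. No gene of the 9 passed the threshold in any of these fits. Vehicle 2 had the largest library factor (3.28) and the highest mean negative control (5.61 on the log2 scale). Vehicle 3 had the smallest factor (1.72) and the lowest mean negative control (4.83). Of the 9 genes, 4 were above background in no library. The part of the background level in these shifts was not tested.

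The 3 highest libraries were the same for most of the 9 genes, and also for the negative controls, while the lowest library differed between genes. For 8 of the 9 genes, all except Cr2, the 3 highest values were those of anti-CD40 1, anti-CD40 2 and vehicle 2, as they were for 12.5% of all genes. The mean count of the negative controls, put on the same log2 scale, was 5.35, 5.42 and 5.29 in anti-CD40 libraries and 5.09, 5.61 and 4.83 in vehicle libraries, with its own 3 highest values in those libraries. Cd79a, Cd22, Cr2 and Fcer2a together averaged between 0.22 below and 0.23 above that level. Cd79b, Ms4a1, Pax5 and Pou2af1 together averaged 1.31 and 1.45 above it in anti-CD40 1 and 2 and −0.02 in anti-CD40 3, against 0.10, 2.25 and 0.06 above it in vehicle 1, 2 and 3. Cd79b, Ms4a1, Pax5 and Pou2af1 were grouped because they exceeded background in those 3 libraries. Their wider range than that of the negative controls follows from that grouping and is no separate result.

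Some other B cell genes of the panel were detected in no library, and some in every library. Cxcr5, the receptor for the follicular chemokine Cxcl13, and the BAFF receptor gene Tnfrsf13c were above background in none. Cxcr5 had its most counts in vehicle 2, 24 beside a limit of 26.6. Blnk, the adaptor that links the B cell receptor to downstream enzymes, and Cd37, a tetraspanin of leukocytes, were above background in all 6 libraries. Blnk was 9.50, 9.50 and 9.74 in anti-CD40 libraries and 9.86, 10.03 and 9.39 in vehicle libraries, a difference of −0.18 (SE 0.25). Its highest value was also in vehicle 2, but its range over the libraries was far narrower than that of Cd79b. Blnk had 305 counts in anti-CD40 3, where Ms4a1, Cd79b, Pax5 and Pou2af1 did not exceed background. Which cells carried Blnk was not tested.

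Wider lists of B cell biology, counted without the 9 genes, held no gene that passed the test. Of 20 genes of B cell receptor signalling 11 were higher and 9 lower in anti-CD40 tumours, with a median difference of 0.05. The gene of lowest p in that list was Cd5, a surface receptor of T cells and of B-1 B cells. It was 7.55, 7.94 and 7.85 in anti-CD40 libraries and 8.80, 8.41 and 8.63 in vehicle libraries. The groups did not overlap, but the difference of −0.83 (SE 0.23) did not pass the test (limma adjusted p = 0.974). Others of the list, such as the kinases Syk and Lyn, are expressed by myeloid cells as well. Of 12 B cell transcription factor genes 8 were higher and 4 lower (median 0.05), of 12 survival genes 5 were higher and 7 lower (median −0.06), and of 16 homing and follicle genes 10 were higher and 6 lower (median 0.10). The gene of lowest p among the transcription factors was Irf4, which acts in plasma cell differentiation and also in dendritic and T cells, at 6.95, 6.60 and 7.26 in anti-CD40 libraries and 6.35, 6.54 and 6.13 in vehicle libraries. Of 22 genes of the CD40 response 10 were higher and 12 lower (median −0.08). Cd40 itself, the target of the antibody, was 6.92, 7.09 and 6.16 in anti-CD40 libraries and 7.36, 7.05 and 6.53 in vehicle libraries, without a peak in vehicle 2.

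Cxcl13, which attracts B cells to follicles, was not highest where the B lineage genes were. It was 8.17, 8.60 and 10.60 in anti-CD40 libraries, against 7.87, 7.12 and 8.11 in vehicle libraries, above background in all 6. The highest value was in anti-CD40 3, where 0 of the 9 B lineage genes exceeded background, and the lowest in vehicle 2, where Ms4a1, Cd79b, Pax5 and Pou2af1 were highest. The groups did not overlap, but the difference of 1.42 (SE 0.62) did not pass the test (limma adjusted p = 0.974), and it was 0.69 without anti-CD40 3.

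Some granule genes were detected in the same libraries as the B lineage genes. Exactly 9 genes of the table (1.17%) were above background in anti-CD40 1, anti-CD40 2 and vehicle 2 and in no other library, a set chosen after the values were seen. Among them were Cd79b, Ms4a1, Pax5 and Pou2af1, the interleukin 18 receptor accessory gene Il18rap, and 3 granule genes of developing myeloid cells: Camp (cathelicidin), Prg2 (eosinophil major basic protein) and Elane (neutrophil elastase). Camp had 1007, 190 and 11 counts in anti-CD40 libraries, against 8, 544 and 14 counts in vehicle libraries. Elane had 253, 58 and 11 counts, against 23, 157 and 14 counts. Camp, Elane, Prg2 and Lcn2 were highest in anti-CD40 1, while Ms4a1, Cd79b, Pax5 and Pou2af1 were highest in vehicle 2. Other immature granulocyte genes were also highest in vehicle 2. These were Mpo (9.57, against 9.43 in anti-CD40 1), Ctsg (7.43 against 6.78) and Ltf (7.45 against 7.30).

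Of the 7 immature granulocyte genes measured, 7 had a higher mean in anti-CD40 tumours, as 54.5% of all genes did, and 0 passed the test. The difference of Camp was 1.76 (SE 2.02). With 1 library left out it ranged between 0.37, where anti-CD40 1 was omitted, and 3.84, where vehicle 2 was omitted. Lcn2 alone was above background in all 6 libraries, and it was higher in vehicle 1, at 10.62, than in vehicle 2, at 9.84. Their normalized counts summed to between 758 and 6309 in anti-CD40 libraries and between 407 and 4796 in vehicle libraries. Among B cell precursor genes, Igll1, a part of the surrogate light chain of the pre-B cell receptor, had 23, 35 and 15 counts in anti-CD40 libraries, against 14, 95 and 20 counts in vehicle libraries. It was above background in anti-CD40 2 and vehicle 2, with its highest value in vehicle 2, like Pax5. Rag1, which cuts the immunoglobulin and T cell receptor genes during lymphocyte development, had 45, 18 and 10 counts, against 17, 25 and 18 counts, above background in anti-CD40 1 alone. The 4 precursor genes measured, Kit and Il7r with these, summed to between 367 and 483 normalized counts in anti-CD40 libraries and between 306 and 752 in vehicle libraries. Their means were 6.82, 6.68 and 6.27 against 6.07, 7.445 and 6.08, with the 3 highest in anti-CD40 1, anti-CD40 2 and vehicle 2. Kit and Il7r were above background in all 6 libraries. The part of granulocyte and precursor cells in the B lineage values was not tested.

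The 8 mature neutrophil genes averaged 7.94, 8.65 and 6.97 in anti-CD40 libraries and 7.67, 8.09 and 6.92 in vehicle libraries, so that their 3 highest means also lay in anti-CD40 1, anti-CD40 2 and vehicle 2. Their part in the B lineage values was likewise not tested.

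The T cell and plasma cell lists had other orders of the libraries. The 16 T cell genes averaged 6.30, 6.998 and 6.51 in anti-CD40 libraries and 6.93, 6.87 and 6.44 in vehicle libraries, and summed to between 2062 and 3124 normalized counts against between 2250 and 3220.5. Cd3e, a chain of the T cell receptor complex, was lowest in anti-CD40 1, at 5.95, where Cd79b was 7.15. The 6 plasma cell genes averaged 7.76, 7.73 and 7.83 in anti-CD40 libraries and 7.73, 8.01 and 7.28 in vehicle libraries. Tnfrsf17, the receptor BCMA of plasma cells, was above background in none, while Xbp1, a secretory regulator that epithelial cells also express, was above it in all 6.

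**Figure D4:**
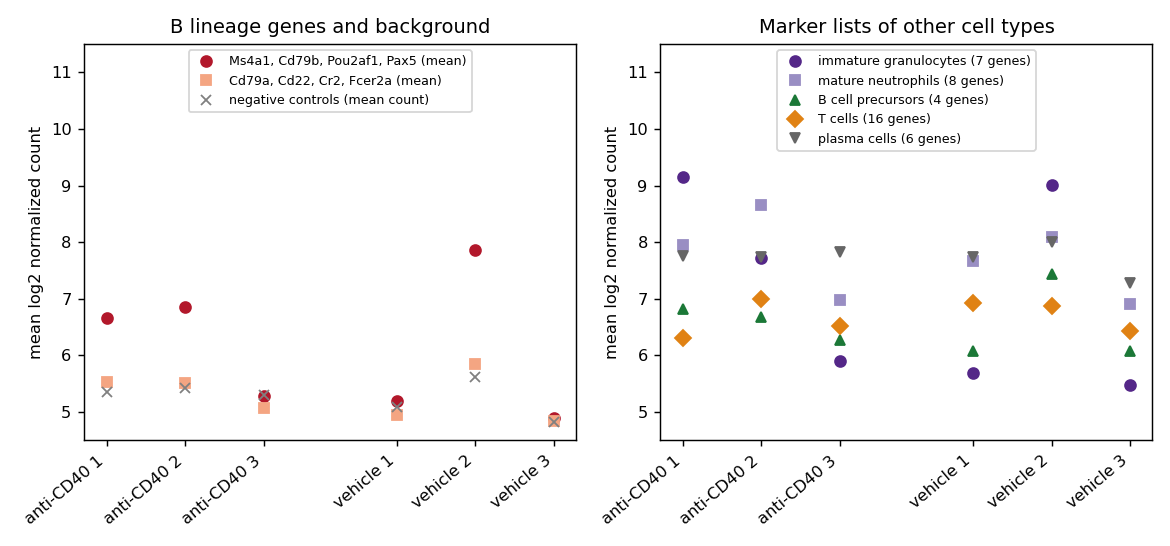
Mean log2 normalized count per library. Left, the 4 B lineage genes detected in 3 libraries (red), the 4 detected in none (light squares) and the mean negative control (grey crosses): the red points reach 6.66, 6.86 and 7.86 in anti-CD40 1, anti-CD40 2 and vehicle 2, and lie within 0.10 of the negative controls elsewhere. Right, marker lists of other cell types in the same libraries, of which the immature granulocyte list was highest in anti-CD40 1 at 9.14 and vehicle 2 at 9.01.

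Genes with the most similar pattern were sought among the 613 other genes above background in at least 3 libraries. Likeness was measured over the 6 libraries as the root mean square distance between a gene's values and the mean of the 9 B lineage genes, each centred on its own mean. The median candidate lay at 0.70 log2. Among the 8 nearest were the class I histocompatibility gene H2-Q2 (0.19), the integrin gene Itga4 (0.21), Il18rap (0.21), the Ikaros transcription factor gene Ikzf1 (0.22), Ceacam1 (0.22), Cyfip2 (0.27) and the adhesion molecule gene Vcam1 (0.28). The members themselves lay between 0.33 and 0.62 from the mean of the 9. Genes compared in this way share their libraries and the scaling of each library.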

How the data were processed

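RNA from 3 anti-CD40 and 3 vehicle tumour samples was measured. The deposited table gives log2 values of normalized counts (784 rows: 770 genes, 6 positive and 8 negative controls). RNA was extracted with a kit for fixed tissue, per the labels' protocols, while the sources used here give no platform, software or normalization rule. Each value is the log2 of a library factor (1.72 to 3.28) times a whole count, plus 4.55. The step gave a whole count, to within 0.05, for 100% of 4704 values, and background had not been subtracted, so factors differ for counts at background too. The added 4.55 understates differences of low genes.

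Groups were compared with limma 3.58.1 in R 4.3.3 (lmFit, eBayes, two-sided, 4 residual and 3.37 prior degrees of freedom) on all 770 genes. An exact permutation test of 3 against 3 cannot go below 0.1. Alternatives were the replicate block, each library left out, quantile and housekeeping scaling (20 genes), a background filter, trend, robust variance, limma-voom on the recovered counts with trimmed-mean (TMM) factors, background subtraction (floor 1) and a pseudocount of 32. The fit was tested on simulated data. Named genes were the 9 genes, Cd40, preset defining markers, the 3 of lowest p per list and the 8 of nearest pattern. Elane, Mpo, Ctsg, Tnfrsf17, Il7r, Syk, Lyn and the motifs were added after the data were seen. Some genes that this rule names are not reported here. The 9 genes and the lists were chosen with earlier results of these data known.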

Additional observations from a re-analysis of the deposited data

How the results depend on the processing

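Limma called 0 of 770 genes in the comparison and under each of the 15 alternatives, with 13 to 52 genes at an unadjusted p under 0.05. None of the 9 B lineage genes passed the threshold under any of them (lowest adjusted p 0.764). Under the 9 alternatives that kept all 6 libraries, no B lineage gene changed direction. The replicate block, background filter, trend and robust variance leave each gene's difference as in the main fit. Direction could therefore not change under them. Subtracting the negative-control mean, with a floor of 1 count, moved the median difference of the 9 genes to 0.75 and that of all genes to −0.01. It moved the single differences to 1.40 for Cd79a, 0.75 for Ms4a1, 0.86 for Cr2, 1.49 for Pou2af1, −0.45 for Pax5, −1.17 for Blk and −1.41 for Cd22, with none past the threshold. With 1 library left out, 13 of 54 differences of the B lineage genes turned sign. The differences then ranged from −0.24 to 1.13 for Ms4a1, −0.24 to 1.58 for Cd79b, −0.0042 to 1.52 for Pou2af1, −0.72 to 0.67 for Pax5, −0.035 to 0.47 for Cr2, −0.018 to 0.65 for Fcer2a, −0.36 to 0.091 for Blk, −0.64 to 0.15 for Cd22 and 0.087 to 0.66 for Cd79a. They ranged from −0.48 to 0.028 for Cd40 and −0.69 to 0.47 for Cxcr5, and from −0.15 to 0.76 for the mean over the 9 genes. The lowest values of Cd79b, Pou2af1, Cr2, Cd22 and the mean came without vehicle 3, those of Ms4a1, Pax5, Fcer2a and Blk without vehicle 1, and the highest of each B lineage gene other than Blk without vehicle 2. The count of genes with a higher anti-CD40 mean, an alternative added after seeing the data, ranged from 2 to 9 with 1 library left out. It was 3 with the background filter, which tests only 5 of the 9 genes. The cause of these changes was not tested. With the replicate block, 0 genes passed and 32 had an unadjusted p under 0.05. Libraries with the same number correlated at −0.43, 0.069 and 0.28 in their deviations, so the numbers were not taken to pair the samples. Values at background limit what Cd79a, Cd22, Cr2 and Fcer2a can show.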
